A study of Drosophila melanogaster with 12 samples.

Results

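Whole-animal loss of *dMPC1* was examined in intestines of *dMPC1* mutants, set against intestines of precise excision animals. The comparison takes its members from the labels and the table deposited for this pair of genotypes, and uses 3 of the 8 libraries analysed here: mutant replicates 1 and 2 and precise excision replicate 2. The labels describe 12 libraries, and the others were not analysed here. The mutants were transheterozygous for the deletion alleles *dMPC1*1 and *dMPC1*2, so every cell of the animal carried the lesion from the start of development. Precise excision animals were homozygous for a clean loss of the same *P*-element, which leaves the gene intact, and the labels give their strain as w1118 and their genotype as wild type. The intestines came from adults aged 7 to 10 days. The labels give neither the sex nor how many animals went into a library, and no driver or RNAi transgene was present. The remaining 5 libraries belong to a second experiment, in which *dMPC1* RNAi (3 libraries) or *mCherry* RNAi (2 libraries) was driven in adult enterocytes by *myo1A-GAL4* with *Tub-GAL80ts* for 7 days from an age of 4 to 5 days.

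The mitochondrial pyruvate carrier sits in the inner mitochondrial membrane and admits pyruvate, the end product of glycolysis, to the matrix, where pyruvate dehydrogenase feeds it to the TCA cycle. Without the carrier, pyruvate stays in the cytoplasm, where lactate dehydrogenase can reduce it. The fly midgut is lined by enterocytes, large absorptive cells that make digestive enzymes and are replaced by intestinal stem cells. Stressed enterocytes release Upd cytokines, which act through the JAK/STAT pathway to raise stem cell division.

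Values are normalized counts, that is, the counts of a gene after the scaling that the authors applied to each library. For the mutants, replicate 1 is always given before replicate 2. Fold changes are mutant over precise excision on the log2(normalized count + 1) scale, on which low genes change by less than their true ratio. Reads in genes numbered 21918521 and 7362983 in the mutant libraries and 12737636 in the precise excision library, so that 3 reads were worth 1.59, 5.13 and 3.23 normalized counts. A gene was called when its p from limma, adjusted by Benjamini and Hochberg, did not exceed 0.01 and the log2 fold change was at least 0.6 in size. Only 1 of the control libraries in the labels entered the comparison, and the test assumes that it varies like the mutants. In whole intestines, fewer cells of a type and less RNA per cell cannot be told apart.

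The target transcript was nearly absent from the mutants. Mpc1 (*dMPC1*, FBgn0038662, on 3R) stood at 5.31 and 13.7 normalized counts in mutant intestines, against 1997 in precise excision intestines. This is −7.70 on the log2 scale, with a standard error of 0.47 and an adjusted p of 1.46e-04 in limma. *CG9396* and *CG9399*, genes of the same carrier family, were not called. *CG9396* had 931 and 1162 normalized counts in mutants and 665 in the control library, and *CG9399* had 1750 and 2232 in mutants and 1486 in the control library. Of the 10 annotated protein-coding genes nearest to Mpc1, 5 on each side, 8 were in the table and 0 were called by limma, with log2 fold changes between −0.40 and 0.83 and a smallest adjusted p of 0.0647. Called genes were spread over the genome, with 4.21% of the tested genes called on 2R, 4.20% on 3L, 3.77% on 3R, 3.49% on 2L, 2.82% on chromosome 4 and 2.70% on X.

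Of 8794 genes tested, 115 rose (1.31%) and 210 fell (2.39%) in *dMPC1* mutants, 3.70% in both directions together. The median size of the log2 fold change was 1.48 among genes that rose and 1.54 among genes that fell, and 38 rises and 71 falls were of 2 or more. Over all genes tested the median log2 fold change was 0.01. Before adjustment, 2088 of the 8794 had a p under 0.05 in this limma fit, which is the background for such counts in the lists below. At a called share of 3.70%, a list of few genes can hold 0 calls. Thus 0 calls in a short list is no result about its members. The number of calls depended on the fit. With no filter on low genes limma called 0 rises and 0 falls among 9913 genes, of which 1842 had an unadjusted p under 0.05. TMM scaling gave 38 rises and 79 falls, and edgeR on whole reads gave 33 and 99. The 9 alternatives counted for single genes all keep a filter on low genes and a threshold of 0.01, and all 9 called 7 of the rises and 41 of the falls. A mutant library could be left out only in a fit of all 8 libraries, so those fits change the fit as well as the library. With both mutants that fit still called 43 of the rises and 126 of the falls. It called 21 and 56 of them without replicate 1, and 15 and 60 without replicate 2.

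*CG7542*, a chymotrypsin-like serine protease gene, had the largest fall after Mpc1, with 25.0 and 23.9 normalized counts in mutants and 5273 in the precise excision library (log2 fold change −7.69, adjusted p = 4.62e-06 from limma). *CG18417*, a carboxypeptidase gene, had 3.72 and 3.42 in mutants and 322 in the control library. Only 7 and 2 reads of it were counted in the mutants. On pooled reads it was 88.2-fold higher in the precise excision library, with an exact 95% interval of 45.8 to 195 for counting error alone. *CG3264*, an alkaline phosphatase gene, had 3.72 and 5.13 in mutants and 794 in precise excision intestines. Its mutant values rest on 7 and 3 reads, and the ratio of pooled reads was 196, with an interval of 106 to 410. These 3 calls held in all 9 alternatives.

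The immune peptide gene *Drsl2* stood at 2.13 and 1.71 normalized counts in mutants, from 4 reads and 1 read, against 261 in the control library. The ratio of pooled reads was 129, with an interval of 54.5 to 401. Its call held in the fit of all libraries and was lost with either mutant library left out (adjusted p = 0.0160 without replicate 1 and 0.0220 without replicate 2, limma). *CDase*, the neutral ceramidase gene, had 198 and 130 in mutants and 1769 in the control library, and *CNMa*, which encodes a neuropeptide, had 4.25 and 10.3 against 153. *CG7298* had 900 and 643 in mutants and 9064 in precise excision intestines. *CG15533* had 97.3 and 108 in mutants and 1316 in the control library. The log2 fold changes of *CG7900*, *CG10154* and *CG8147* lay between −3.78 and −4.63. *CG7900* rested on 6 and 3 reads in the mutants, with a ratio of pooled reads of 34.2 and an interval of 17.4 to 76.7. The calls of *CNMa* and *CG10154* were already lost in the fit of all libraries, and those of *CG15533* and *CG8147* were lost there only with a mutant library left out.

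**Figure D1:**
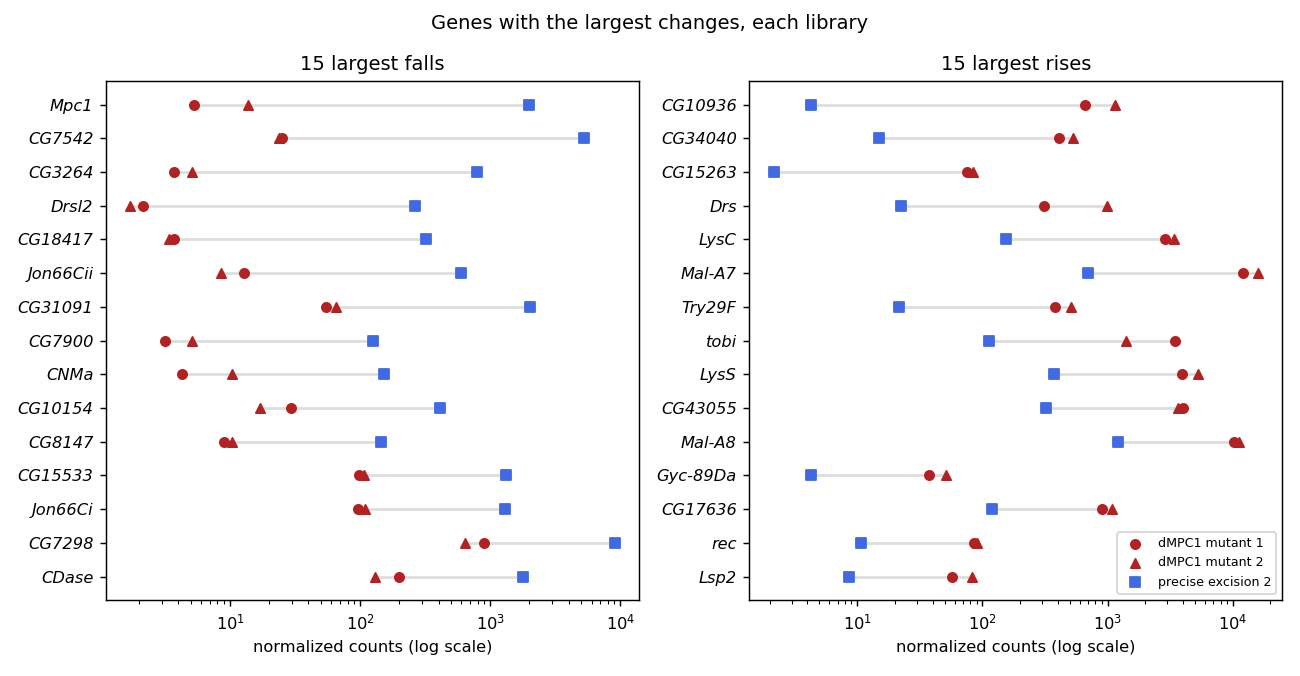
Normalized counts (log axis) of the 15 genes with the largest falls and the 15 with the largest rises among called genes, in each *dMPC1* mutant library (red) and in the precise excision library (blue). Mpc1 stands at 5.31 and 13.7 in mutants and at 1997 in the control library, and in each row both mutant libraries lie on the same side of the control.

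The largest rise was in *CG10936*, with 656 and 1156 normalized counts in mutants and 4.30 in the precise excision library (log2 fold change 7.36, adjusted p = 4.74e-05 from limma). It lay at 0.91 to 54.1 in the RNAi experiment, so the mutants were above every other library. *CG34040* had 410 and 530 in mutants and 15.1 in the control library, and *CG15263* had 75.5 and 83.8 in mutants and 2.15 in the control library. *CG34040* reached 1282 in 1 *dMPC1* RNAi library, above both mutants. The calls of *CG34040* and *CG15263* were lost in the fit of all libraries (adjusted p = 0.0692 and 0.170, limma), and that of *CG10936* held there but not with either mutant left out (0.0148 and 0.0277). *CG43055* (4016 and 3668 against 320) and *CG17636* (908 and 1095 against 119) were called in all 9 alternatives. *rec*, a gene of meiotic recombination, had 85.0 and 90.7 in mutants and 10.8 in precise excision intestines. *Gyc-89Da*, which encodes a guanylyl cyclase subunit, was low throughout, with 37.2 and 51.3 in mutants and 4.30 in the control library. Its call was lost in the fit of all libraries (adjusted p = 0.138, limma), and it was not tested with a mutant library left out. The call of *rec* held in that fit but not with either mutant left out.

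The Jonah genes are a family of serine endopeptidases made by enterocytes. All 16 members were tested, 7 fell, 0 rose and 9 were not called, and the median log2 fold change was −1.31, against 0.01 over all genes tested. *Jon66Cii* had 12.8 and 8.55 normalized counts in mutants and 599 in the precise excision library (log2 fold change −5.71, standard error 0.35). *Jon66Ci* had 96.7 and 109 in mutants and 1296 in the control library. These neighbouring copies could share reads. *Jon99Fi*, one of the most abundant, had 6823 and 6720 in mutants and 38012 in precise excision intestines (log2 fold change −2.49, adjusted p = 1.81e-04 from limma). These 3 calls held in all 9 alternatives. The calls of *Jon25Bii* (3095 and 5695 against 27136), *Jon25Bi* (4468 and 8256 against 29819), *Jon44E* (1454 and 1485 against 3809) and *Jon65Aii* (7134 and 7720 against 15645) were lost in the fit of all libraries, with both mutants in it. Summed over the family, the mutant libraries held 448978 and 585259 normalized counts and the precise excision library 1124160. The RNAi experiment spanned 501149 to 1148890, so this sum in mutant replicate 2 lay within the range of the other libraries.

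Of the 19 other chymotrypsin-like protease genes, 5 fell and 1 rose, with a median of −0.60. Beside *CG7542*, *CG18179* fell to 628 and 460 in mutants, against 5210 in precise excision intestines, and was called in all 9 alternatives. *CG18180*, *CG11911* and *CG11912* fell by 1.51, 1.39 and 1.79 on the log2 scale. The call of *CG11912* was lost in the fit of all libraries, and the other two only when a mutant was left out as well. *CG18179* and *CG18180* overlap *fry* on the opposite strand, and strand use is not given in the sources used here. *CG10477* went the other way, with 11920 and 12353 in mutants and 3892 in the control library (log2 fold change 1.64). The rise of *CG10477* was called in all 9 alternatives.

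Among 11 tested trypsin genes, 4 fell and 1 rose, with a median of −0.52. *epsilonTry* had 8528 and 13313 normalized counts in mutants and 45624 in the control library, and *deltaTry* had 73.9 and 111 in mutants and 496 in the control library. *zetaTry* and *lambdaTry* fell by 1.22 and 1.00 on the log2 scale. *Try29F* rose, with 379 and 506 in mutants and 21.5 in precise excision intestines (log2 fold change 4.29). Its call held in all 9 alternatives. It stood at 656 to 1126 with *dMPC1* RNAi and at 94.3 and 108 with *mCherry* RNAi, so the precise excision library was the lowest of all. Of the 4 falls, *zetaTry* was called without replicate 1 and without replicate 2, *epsilonTry* only without replicate 2, and *deltaTry* and *lambdaTry* were already lost in the fit of all libraries.

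Of 11 carboxypeptidase genes tested, 3 fell and 0 rose, with a median of −0.77. *CG7025* had 960 and 1074 normalized counts in mutants and 2205 in precise excision intestines, and *CG14820* had 3015 and 3102 in mutants and 5471 in the control library. Only *CG18417* of these was called with a single mutant library. Chitinases and peritrophins, which degrade or build the chitin lining of the gut, had 2 falls and 0 rises among 13 tested, with a median of −0.38. *Cht9* had 260 and 330 in mutants and 3213 in the control library, and *Cht8* had 649 and 838 in mutants and 2077 in the control library. *Cht9* was called in all 9 alternatives, and *Cht8* held in the fit of all libraries but not with either mutant left out.

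**Figure D2:**
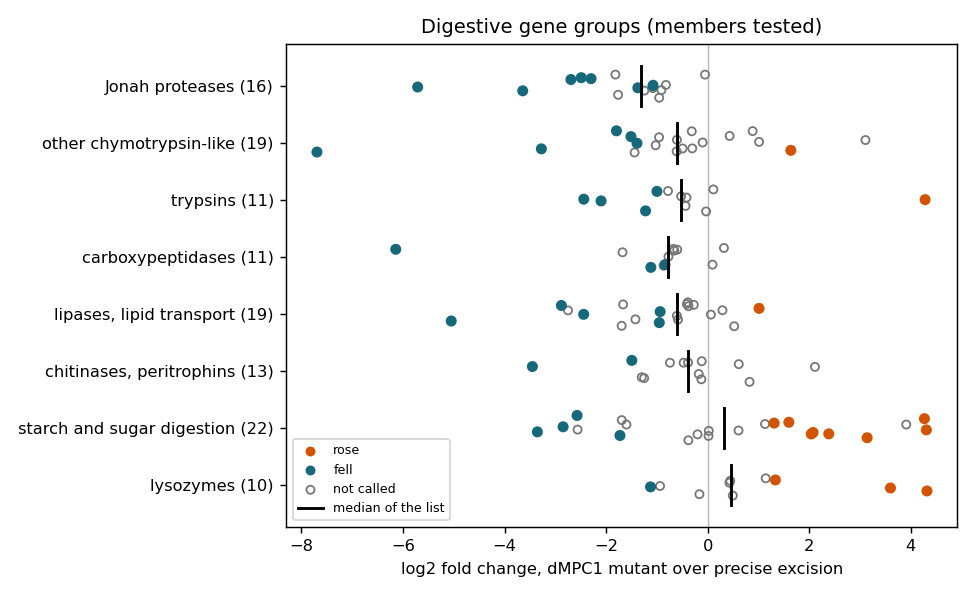
Log2 fold changes, *dMPC1* mutant over precise excision, of every tested member of 8 digestive gene groups, with called genes filled, genes not called open, and a black bar at the median of each group. The protease, carboxypeptidase and lipase groups have medians between −0.52 and −1.31, while starch and sugar digestion has 8 rises and 4 falls around a median of 0.32.

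Genes of starch and sugar digestion had calls in both directions. Of 22 tested, 8 rose, 4 fell and 10 were not called, among them *Mal-B1* at 3.91 and the amylase relative *Amyrel* at −2.56 on the log2 scale. The rises were 5 maltases, the alpha-glucosidase gene *tobi*, the amylase *Amy-p* and the beta-galactosidase *Gal*. *Mal-A7* had 12073 and 15974 normalized counts in mutants and 699 in the precise excision library (log2 fold change 4.31, adjusted p = 4.74e-05 from limma). *Mal-A8* had 10309 and 11316 in mutants and 1221 in the control library, *Mal-A6* had 29754 and 29785 in mutants and 5690 in the control library, and *Mal-A1* had 72455 and 74833 in mutants and 17436 in the control library. *Mal-A2* rose less, with 6214 and 6352 in mutants and 2532 in precise excision intestines. For all 5 maltases the mutants lay above every other library analysed, including the RNAi experiment. Libraries of 1 genotype differed widely for some of them. With *dMPC1* RNAi *Mal-A7* stood at 7052, 2452 and 1221, and *Mal-A1* at 46734, 22293 and 16330. The precise excision library was the lowest of all 8 for *Mal-A7*, *Mal-A8* and *Mal-A2*, but not for *Mal-A6* and *Mal-A1*. The maltase genes are close copies in a cluster and could share reads.

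*Amy-p* had 33278 and 47210 normalized counts in mutants and 13064 in the control library. *Gal* had 2131 and 2713 in mutants and 583 in precise excision intestines, but 3188 and 3308 with *mCherry* RNAi, so for *Gal* the mutants were not above the remaining libraries. *tobi*, known as a target of insulin and adipokinetic hormone, had 3463 and 1399 in mutants and 113 in the control library. With *dMPC1* RNAi *tobi* stood at 6686, 726 and 392, so its libraries of one genotype differ widely. The 4 falls were the alpha-mannosidase genes *LManI* to *LManIV*. *LM408* (*LManII*) had 3857 and 4284 in mutants and 24145 in precise excision intestines, and *CG9463* (*LManIII*) had 241 and 460 in mutants and 3414 in the control library. *CG5322* (*LManI*) and *CG9465* (*LManIV*) fell by 1.73 and 2.85 on the log2 scale. None of these 12 calls held with a single mutant library in the fit of all libraries, and that fit with both mutant libraries kept 1 rise and 1 fall.

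The lysozyme genes, which encode digestive and antibacterial glycosidases, had 3 rises and 1 fall among 10 tested, with a median of 0.47. *LysC* had 2878 and 3375 normalized counts in mutants and 155 in the precise excision library (4.32 on the log2 scale, adjusted p = 3.26e-05 from limma). The precise excision library was the lowest of all for *LysC*, since the RNAi experiment spanned 869 to 2275. *LysS* had 3921 and 5278 in mutants and 373 in the control library. *LysS* stood at 5595 and 6117 with *mCherry* RNAi, above both mutants. Both calls held in all 9 alternatives. *LysE* rose by 1.34 and *LysX* had 1600 and 1328 in mutants and 3176 in the control library, and both calls were lost in the fit of all libraries. *LysD* (53235 and 64531 against 26503) and *LysB* (13939 and 17088 against 10938) were not called. *LysB*, *LysC*, *LysD* and *LysE* are nearly identical, so their split is uncertain.

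Among 19 tested genes of gut lipases and lipid transport, 5 fell and 1 rose, with a median of −0.60. *CG17192*, a lipase gene, had 3617 and 6581 normalized counts in mutants and 35926 in the control library. *Rfabg*, the precursor of the lipoprotein that carries lipid in the hemolymph, had 765 and 831 in mutants and 4333 in precise excision intestines (log2 fold change −2.44), and its call held in all 9 alternatives. *Npc1b*, needed for sterol absorption in the midgut, had 2009 and 2022 in mutants and 3898 in the control library. *CG31091* had 54.7 and 65.0 in mutants and 2008 in the precise excision library. In the RNAi experiment *CG31091* stood at 18.8 to 68.6, so the control library and not the mutants stood apart. *CG6283* rose, with 679 and 746 in mutants and 352 in precise excision intestines. Of these calls, that of *CG17192* held without replicate 2, those of *Npc1b* and *CG31091* were lost with either mutant left out but not in the fit of all libraries, and that of *CG6283* was lost in that fit too.

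The alkaline phosphatase genes were taken up after their values were seen. Of 9 tested, 5 fell and 0 rose. *CG3292*, at −5.00 on the log2 scale, was not called. *CG10592* had 3896 and 4027 normalized counts in mutants and 16306 in the control library, and *CG5150* had 4166 and 3854 in mutants and 15942 in the control library. *CG10827* and *CG1809* fell by 1.08 and 1.07 on the log2 scale. For these 4 genes the mutants lay below all 6 other libraries. Of the 5 falls, those of *CG3264* and *CG10592* held in the fit of all libraries, and only that of *CG3264* with a single mutant library. *CG3290*, chosen in the same way, had 1991 and 1894 in mutants and 19324 in precise excision intestines, and was called in all 9 alternatives.

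Genes of central carbon metabolism came next. None of 13 glycolysis genes, 18 TCA cycle genes or 58 tested respiratory chain genes was called by limma, beside 3.70% of all genes tested. At an unadjusted p under 0.05 there were 1, 1 and 4 of them. The medians were 0.10, −0.06 and −0.17 on the log2 scale. The genes for the pyruvate dehydrogenase subunits were not called. *l(1)G0334* (E1 alpha) had 4383 and 4763 normalized counts in mutants and 3913 in the control library, and *CG5261* (E2) had 4017 and 4862 in mutants and 3329 in the control library. For these subunits the mutants were above all other libraries, with log2 fold changes of 0.22 and 0.41.

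Around pyruvate itself, 2 of 14 genes fell and 0 rose. *ImpL3*, the lactate dehydrogenase gene, had 787 and 599 normalized counts in mutants and 1782 in precise excision intestines (log2 fold change −1.38, standard error 0.18). *CG10924* (*Pepck2*), a gene for phosphoenolpyruvate carboxykinase, had 416 and 419 in mutants and 983 in the control library (−1.23, standard error 0.13). The call of *Pepck2* held with either mutant library left out, while that of *ImpL3* just missed the threshold in the fit of all libraries (adjusted p = 0.0103, and 0.0149 without replicate 1 and 0.0441 without replicate 2, limma). For both genes the mutants lay below every other library, though *ImpL3* in *mCherry* RNAi intestines, at 870 and 904, was close to the higher mutant. For *ImpL3* the precise excision library was also the highest of all 8, just above a *dMPC1* RNAi library at 1717. The malic enzyme genes *Men* (7632 and 9777 against 4211) and *Men-b* (3176 and 2537 against 1682) had positive fold changes that were not called.

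Among 11 genes for glycogen, trehalose and polyol enzymes, *Treh*, the trehalase gene, rose, and *UGP*, which makes UDP-glucose for glycogen and trehalose, fell. *Treh* had 7577 and 7214 normalized counts in mutants and 3637 in the control library, and *UGP* had 868 and 900 in mutants and 2553 in the control library. *UGP* overlaps *PGRP-LF* on the opposite strand. Of 15 genes of serine and one-carbon metabolism and the ATF4 response, only *CG11899*, which encodes phosphoserine aminotransferase, was called, with 379 and 397 in mutants and 1121 in precise excision intestines. *v(2)k05816*, a fatty acid synthase gene, was the only 1 of 16 lipid synthesis genes to be called, with 254 and 380 in mutants and 100 in the control library. With 3.70% of all genes tested called, 1 call in lists of this length is no result about the lists. The calls of *UGP* and *CG11899* held in the fit of all libraries and those of *Treh* and *v(2)k05816* did not, and none of the 4 held with a single mutant library. The lists of 11 proline and glutamate genes and 13 fatty acid oxidation genes had 0 calls by limma. In each list 6 had an unadjusted p under 0.05, as did 2088 of all 8794 genes tested.

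Some regulators of sugar metabolism were picked after their values were seen. *ERR*, a nuclear receptor gene that drives glycolytic genes in larvae, had 1034 and 1199 normalized counts in mutants and 492 in the control library. *Slc45-1*, a sugar transporter gene, had 544 and 823 in mutants and 129 in precise excision intestines. *Akh*, the adipokinetic hormone gene, had 195 and 205 in mutants and 78.5 in the control library, and 161 to 539 in the RNAi experiment, so for *Akh* the precise excision library was the lowest of all. The call of *Akh* was lost in the fit of all libraries. Without replicate 1 only *Slc45-1* of these was called, and without replicate 2 none.

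No tested gene in the list for the cytokine pathway to stem cells was called in whole-animal mutants, where 3.70% of all genes tested were called. Of 11 tested JAK/STAT genes, 0 were called by limma, and 0 had an unadjusted p under 0.05. A list of this length can hold 0 calls at the share of all genes. The cytokine gene *upd3* had 195 and 78.7 normalized counts in mutants and 182 in precise excision intestines, and *upd2* had 25.5 and 10.3 in mutants and 10.8 in the control library. The mutant libraries lay on both sides of the control for each. *Socs36E*, a feedback inhibitor induced by the pathway, had 1326 and 830 in mutants and 1472 in the control library. *dome*, the receptor gene, had 974 and 864 in mutants and 1060 in precise excision intestines, and *Stat92E* had 2959 and 3180 in mutants and 3609 in the control library. *Drsl3*, a drosomycin-like gene, had 17.0 and 13.7 in mutants and 4.30 in the control library and was not called. *Drsl2*, which the paper names with *Drsl3* among genes raised by *dMPC1* RNAi, is not in this list. It was called as a fall in mutants, at −6.49 on the log2 scale.

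*upd3* had 260 to 328 normalized counts with *dMPC1* RNAi and 11.0 and 22.9 with *mCherry* RNAi, so the precise excision library stood well above the other control. The difference between the mutant and the RNAi response passed the interaction test at an adjusted p of at most 0.01, as did 8.71% of all genes tested, for *upd3* (−4.66, adjusted p = 0.00372 from limma), *upd2* (−4.29, 0.00537) and *Socs36E* (−2.48, 0.00337). The experiments also differ in the genotype of the controls, the driver and the age of the animals, and may differ in temperature. For its staining experiments the paper moved RNAi animals with *Tub-GAL80ts* to a warmer temperature than that of its stocks. None of these can be told apart from the difference between the responses.

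Division and progenitor genes were examined in the same way. Of 32 tested cell cycle genes 0 were called by limma, beside 3.70% of all genes tested. At an unadjusted p under 0.05 there were 5, and the median was −0.29. *RnrS*, which makes DNA precursors, had 585 and 352 normalized counts in mutants and 1060 in precise excision intestines, and *PCNA*, the sliding clamp gene, had 146 and 66.7 in mutants and 128 in the control library. *CycA* had 96.7 and 56.5 in mutants and 189 in the control library. Among 14 stem cell and enteroblast genes there were 0 calls by limma, with 3 at an unadjusted p under 0.05, and 13 log2 fold changes were below 0. *Sox21a*, a transcription factor of enteroblasts, had 282 and 142 in mutants and 378 in the control library, *esg*, which keeps progenitors undifferentiated, had 282 and 224 in mutants and 326 in the control library, and *Dl*, the stem cell ligand for Notch, had 123 and 83.8 in mutants and 129 in the control library. Mutant replicate 2, the shallower library, had the lower value for each of these genes. The precise excision library was above both *mCherry* RNAi libraries for each of them. With *mCherry* RNAi, *PCNA* stood at 13.2 and 19.8, *Sox21a* at 59.2 and 93.6, and *esg*, the closest, at 292 and 299. With *dMPC1* RNAi, *Sox21a* had 390 to 481. How far the level of the lone control sets these fold changes was not tested.

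No gene of the JNK pathway was called by limma among 16 tested, beside 3.70% of all genes tested, and 1 had an unadjusted p under 0.05. *bsk*, the JNK gene, had 911 and 996 normalized counts in mutants and 870 in precise excision intestines, and *puc*, a phosphatase gene induced by JNK, had 1353 and 1357 in mutants and 1412 in the control library. The EGFR list had 0 calls by limma among 10 genes, with 3 at an unadjusted p under 0.05. Its lowest log2 fold change was that of *rho*, a protease gene that releases EGFR ligands, with 28.2 and 23.9 in mutants and 67.8 in the control library. The 13 enteroendocrine peptide genes had 0 calls by limma, with 4 at an unadjusted p under 0.05. *CCHa2* had 990 and 1509 in mutants and 584 in precise excision intestines, and *AstC* had 623 and 751 in mutants and 1107 in the control library.

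**Figure D3:**
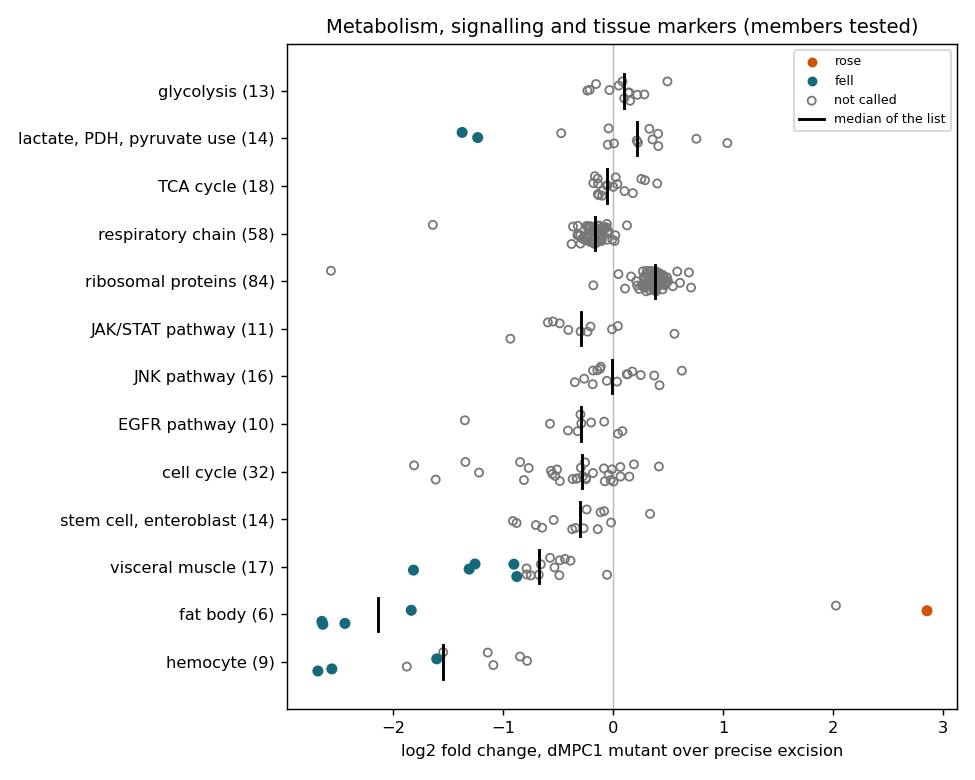
Log2 fold changes, *dMPC1* mutant over precise excision, of tested members of metabolic, signalling, progenitor and tissue marker lists, with called genes filled, genes not called open, and the median of each list as a black bar. Glycolysis, the TCA cycle, the respiratory chain and the JAK/STAT list have 0 calls by limma, and all 17 visceral muscle genes and all 9 hemocyte genes lie below 0.

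Antimicrobial peptide genes moved in both directions. Of 9 tested, 2 rose and 1 fell. *Def*, the defensin gene, had 244 and 195 normalized counts in mutants and 36.6 in the control library, and *Drs*, the drosomycin gene, had 311 and 985 in mutants and 22.6 in the control library. For both genes the mutants lay above all 6 other libraries. *Dpt* stood at 816 in mutant replicate 1 and 30.8 in replicate 2, against 44.1 in precise excision intestines, so the replicates lay on both sides of the control. Of 20 genes of peptidoglycan recognition and the IMD pathway, *PGRP-SC1a*, an amidase gene, rose (236 and 322 against 82.9) and *PGRP-LF*, an inhibitor of the pathway, rose (284 and 245 against 102). Only the rise of *PGRP-LF* held in the fit of all libraries, and none of these 4 with a single mutant library.

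Iron and detoxification genes had calls in both directions. The ferritin genes *Fer1HCH* and *Fer2LCH*, which store iron and overlap on opposite strands, fell together. *Fer1HCH* had 23170 and 21989 normalized counts in mutants and 56526 in precise excision intestines, and *Fer2LCH* had 22891 and 19163 in mutants and 59787 in the control library. *Tsf1*, the transferrin gene, had 387 and 606 in mutants and 118 in the control library, and *MtnC*, a metallothionein gene, had 6448 and 9424 in mutants and 1950 in the control library. The calls of *Tsf1* and *MtnC* were lost in the fit of all libraries. That of *Fer2LCH* held without replicate 1, and none of the 4 without replicate 2.

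Of 72 tested cytochrome P450 genes, 7 fell and 4 rose, beside 2.39% and 1.31% of all genes tested. *Cyp4ad1* (529 and 575 normalized counts in mutants against 2430) and *Cyp4d8* (80.2 and 89.0 against 505) fell and were called in all 9 alternatives. *Cyp309a1* rose, with 1324 and 1334 in mutants and 185 in the control library, and *Cyp4p2* rose, with 733 and 782 in mutants and 309 in precise excision intestines. The call of *Cyp309a1* held in the fit of all libraries and was lost with either mutant left out, and that of *Cyp4p2* held in each. Among 32 glutathione transferase genes, *GstE6* (2830 and 3267 against 1406) and *GstE9* (1265 and 1606 against 603) rose and 0 fell. The UDP-glycosyltransferases had 1 rise, *Ugt86Dg*, and 4 falls among 30 tested. The call of *GstE9* was lost in the fit of all libraries. Neither *GstE* call and no *Ugt* call held with a single mutant library. Heat shock protein genes (14 tested) and redox defence genes (18 tested) had 0 calls by limma, with 5 in each list at an unadjusted p under 0.05. With 3.70% of all genes tested called, 0 calls in lists of this length is no result about their members.

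Of the 84 cytosolic ribosomal protein genes, 0 were called by limma, but 82 had a log2 fold change above 0 and the median was 0.38. At an unadjusted p under 0.05 there were 33, against 2088 of all 8794 genes tested. Summed over the list, the mutants held 1029800 and 1087590 normalized counts and the precise excision library 820098. The RNAi experiment spanned 814016 to 1272920, so the mutants were inside the range of the other libraries. The 72 mitochondrial ribosomal protein genes, the 31 tested proteasome genes and the 21 tested subunits of the vacuolar proton pump had medians between −0.04 and 0.06.

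Markers of tissues that adhere to a dissected gut were counted as well. Of 17 visceral muscle genes, 5 fell, 0 rose and all 17 log2 fold changes were below 0, with a median of −0.68. *Act57B* had 2639 and 2590 normalized counts in mutants and 6490 in the precise excision library, and *Act87E* had 416 and 347 in mutants and 1342 in the control library. *Mlp60A*, *Mlc2* and *Prm* fell by 1.26, 0.90 and 0.88 on the log2 scale. For these 5 genes the precise excision library was the highest of all 8. Summed over the list, the mutants held 31175 and 31294 normalized counts, the precise excision library 49021 and the RNAi experiment 30178 to 36251. The call of *Act87E* was lost in the fit of all libraries. Without replicate 1 only *Act57B* was called, and without replicate 2 none.

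Of 6 tested fat body genes, 4 fell and 1 rose. *Yp1* (4847 and 5659 in mutants against 18726), *Yp2* (2208 and 2224 against 13915) and *Yp3* (1508 and 1733 against 10093), the yolk protein genes, fell together with *Rfabg*. *Yp2* and *Rfabg* were called in all 9 alternatives, and *Yp1* and *Yp3* held in the fit of all libraries but not with either mutant left out. *Lsp2*, a larval storage protein gene, rose, with 56.9 and 82.1 in mutants and 8.61 in the control library, a call that was lost in the fit of all libraries. The summed level was 9439 and 10596 in mutants, 47098 in the precise excision library and 9262 to 34939 in the RNAi experiment. Of 9 tested hemocyte genes, 3 fell and 0 rose. The prophenoloxidase gene *PPO1* had 54.2 and 47.9 in mutants and 334 in the control library, *PPO2* had 68.0 and 54.7 in mutants and 365 in the control library, and *NimC1*, a phagocytosis receptor gene, had 46.2 and 53.0 in mutants and 153 in the control library. *Hml*, a defining hemocyte marker, had 154 and 248 in mutants and 574 in precise excision intestines and was not called. The hemocyte sum was 514 and 638 in mutants, 1851 in the precise excision library and 310 to 648 in the RNAi experiment. The 3 hemocyte calls were lost in the fit of all libraries.

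Genes of the basement membrane were picked after their values were seen. Of 12 tested, 5 fell and 0 rose. The collagen genes *vkg* (238 and 289 normalized counts in mutants against 950) and *Cg25C* (400 and 460 against 1500), the laminin gene *LanA* (768 and 659 against 1356) and *Ppn* (917 and 1014 against 2426) were highest in the precise excision library among all 8 libraries. The fifth, *Glt*, which encodes glutactin, fell by 2.26 on the log2 scale. Of the 4 with values given, the call of *Ppn* was lost in the fit of all libraries, and only that of *vkg* held with either mutant library left out. Egg chamber genes were low in the mutants and the control, with 4 of 21 passing the filter and 0 called by limma, with 1 at an unadjusted p under 0.05, and their sums were 380 and 378 in mutants and 421 in precise excision intestines. Among the 10 Malpighian tubule genes, *Ncc69* rose (1227 and 1280 against 522) and *Oatp58Db* fell (560 and 563 against 1234). The call of *Ncc69* held without replicate 1 and that of *Oatp58Db* was lost in the fit of all libraries. The 12 enterocyte digestion markers had 3 rises and 3 falls with a median of −0.55, and their sums were high in every library, with of 482846 and 618662 in mutants and 590910 in the control library. The part that muscle, fat body and hemocyte RNA has in the calls of other genes was not tested.

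Since only 1 precise excision library was compared, each call was also placed against the RNAi experiment, whose values are in another table. How the tables were scaled to each other is not given in the sources used here. Over the 6852 genes above 50 normalized counts in every library, the median log2 ratio to the mean of all 8 libraries lay between −0.02 and 0.02 in each library. Both mutant libraries lay below all 6 other libraries for 123 of the 210 genes that fell, and for 10.7% of all genes tested. The precise excision library was the highest of all 8 for 109 of the 210, and for 12.7% of all genes tested. Both were true of 43 genes and neither of 21. Among the 115 genes that rose, the mutants were above all 6 other libraries for 78 (12.2% of all genes tested) and the precise excision library was the lowest of all 8 for 45 (13.4% of all genes tested), with 20 genes in both sets and 12 in neither. The choice of called genes favours such positions, so these shares describe the list and are no test of it. In the set of 41 falls called in all 9 alternatives, the mutants were below all 6 others for 32.

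*CG7542*, *CG18417*, *Jon99Fi*, *Jon66Ci*, *Jon66Cii* and *CREG*, a glycoprotein gene chosen after its values were seen, are of the kind where the mutants stood apart. *CREG* had 302 and 364 normalized counts in mutants, 1638 in the precise excision library and 1409 to 1878 in the RNAi experiment. *CG7542* stood at 19269 to 34639 in the RNAi experiment, above the 5273 of the precise excision library. *CG31091*, *CG10154*, *PPO1*, *vkg* and the muscle genes *Act57B*, *Act87E*, *Mlp60A* and *Mlc2* are of the kind where the precise excision library stood apart. For the muscle gene *Prm* both were true. *CG10154* had 29.2 and 17.1 in mutants and 410 in the control library, while the RNAi experiment spanned 0 to 3.27.

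**Figure D4:**
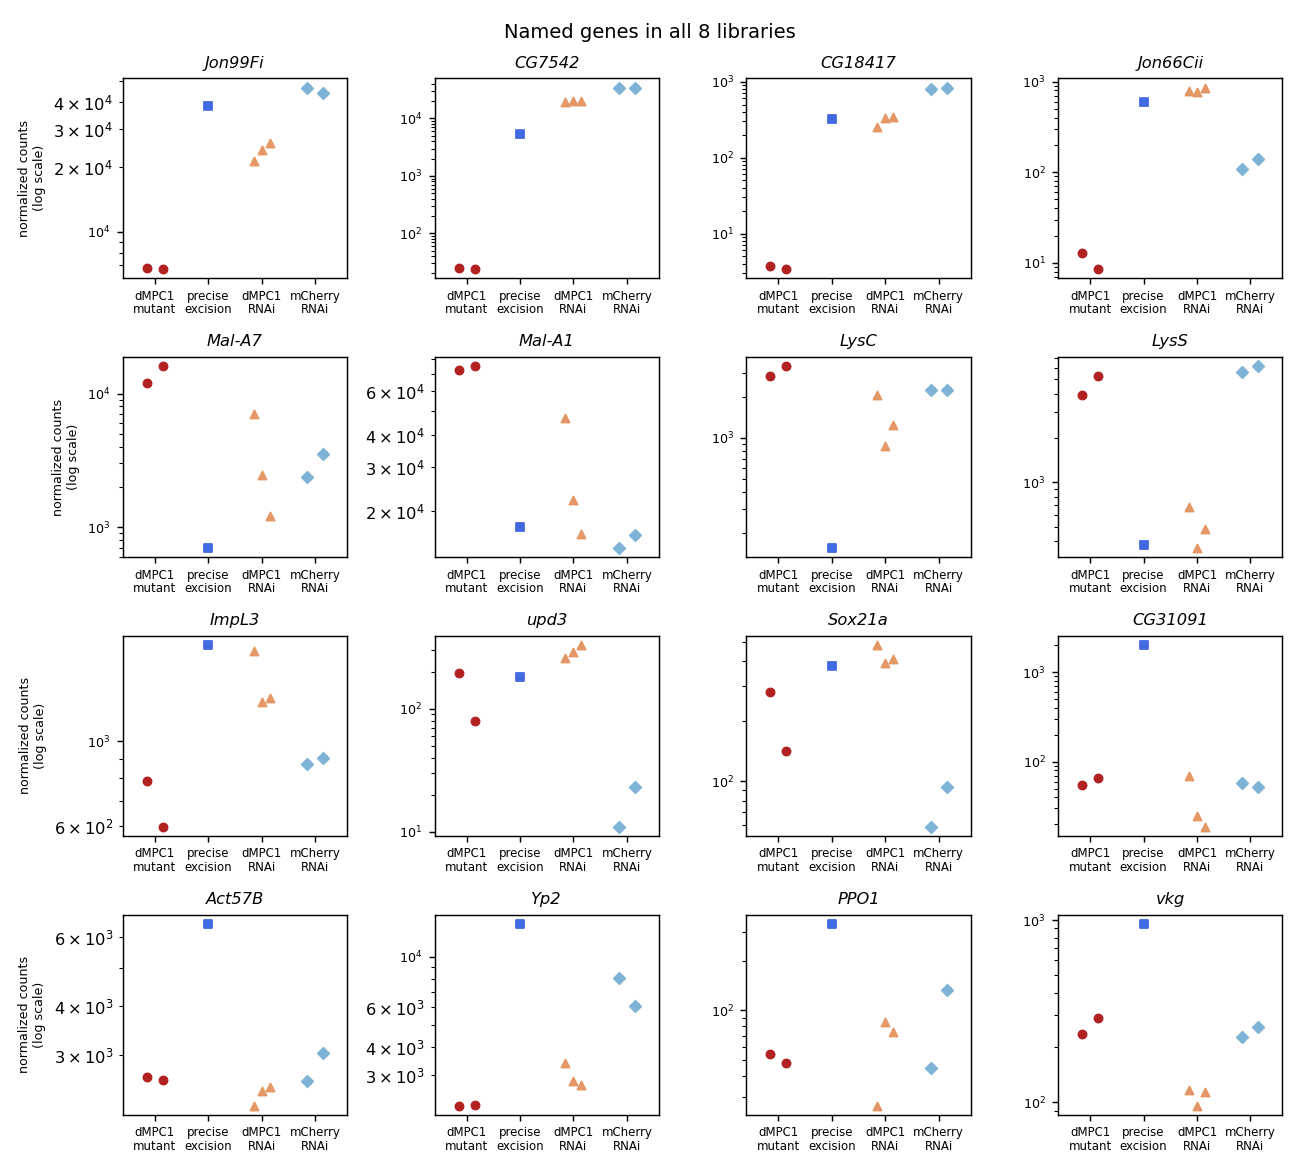
Normalized counts (log axes, 1 point per library) of 16 named genes in *dMPC1* mutant, precise excision, *myo1A > dMPC1-RNAi* and *myo1A > mCherry-RNAi* intestines. For *CG7542* and *Jon66Cii* the mutants lie below all other libraries, whereas for *CG31091*, *Act57B* and *vkg* the precise excision library lies above all others.

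The calls in whole-animal mutants were also set beside those of enterocyte RNAi. With *dMPC1* RNAi 627 genes rose (7.03% of 8921 tested) and 599 fell (6.71%). Of the 210 genes that fell in mutants, 57 fell with RNAi (27.1% of the mutant list and 9.52% of the RNAi list), 31 rose with RNAi and 122 were not called. Of the 115 that rose in mutants, 13 rose with RNAi (11.3% of the mutant list and 2.07% of the RNAi list), 21 fell and 81 were not called. The 2 experiments share no library. *Jon99Fi*, *CG18179*, *Cht9*, *Rfabg* and *Yp2* fell in both. *Cht9* had 646 to 791 normalized counts with *dMPC1* RNAi and 10249 and 8628 with *mCherry* RNAi. *Try29F* and *CG10477* rose in both.

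The opposite case held for *Jon66Cii* and *Jon66Ci*, which rose with RNAi by 2.69 and 1.42 on the log2 scale. *Jon66Cii* stood at 771 to 860 normalized counts with *dMPC1* RNAi and at 108 and 141 with *mCherry* RNAi. *CG3264*, *CG3290*, *CG7298*, *CG8147*, *CG15533*, *CNMa* and *Drsl2* also fell in mutants and rose with RNAi. *CG7298* stood at 9712 to 15404 with *dMPC1* RNAi and at 399 and 394 with *mCherry* RNAi, so the mutants, at 900 and 643, were nearer to the *mCherry* RNAi libraries than the precise excision library was. *LysS* fell with RNAi, with 359 to 683 against 5595 and 6117. *ImpL3* was not called with RNAi, where it had 1268 to 1717 against 870 and 904, and the interaction of −2.05 passed the test (adjusted p = 0.00271 from limma).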

How the data were processed

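Intestinal RNA from *dMPC1* mutant and precise excision adults was sequenced by the authors as 50-cycle single reads, aligned to dm3 and analysed with USeq and DESeq. The submitters' processing notes name Novoalign. For tool versions, counting options, annotation and strand use the sources used here give nothing. In the deposited table the normalized signal of each of 9981 genes is its count scaled by the authors with 1 size factor for each library. Fold changes and adjusted p-values of the authors stand in the same deposited tables and were not used. Every value was a whole multiple of its library's smallest step (100% of values within 0.001 of a read), so whole reads were recovered. They totalled 21918521 and 7362983 in mutant replicates 1 and 2, and 12737636 in precise excision replicate 2. At a floor of 3 reads a gene cannot be told from absent, and intervals cover counting error only.

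limma 3.58.1 in R 4.3.3 was run on log2 values with a pseudocount of 1 and with its trend option, after genes averaging under 10 normalized counts over the 3 libraries were dropped. There was no covariate. Thresholds (adjusted p of at most 0.01, log2 fold change of at least 0.6) follow the paper's methods. The fit has 1 residual degree of freedom and a prior worth 6.30. The difference from the RNAi experiment was tested as an interaction, with all 8 libraries fitted at once. Alternatives were pseudocounts of 0.5 and 5, no filter, a mean of at least 50, TMM scaling, all 8 libraries in 1 fit, edgeR 4.0.16 and DESeq2 1.42.0 on the recovered reads, an adjusted p of 0.05, and each mutant library left out of the fit of all libraries. Scripts were tested on simulated data. Nothing in the labels says that the libraries came from separate animals, so p-values measure only the spread between these samples. The mutant pair differed by more than sampling noise.

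The 47 gene lists hold 1044 entries, of which 981 were found in the table. The members and lists were chosen with earlier results of these data known. Named genes were drawn from Mpc1, its carrier family, the 5 genes on each side of it, and genes the study names in its RNA-seq results or genetics. The 15 largest rises and falls among called genes whose groups do not overlap were also used. So were the 4 members with the smallest p from each list. Not every gene under these rules is named in the text. Some list members, such as *PCNA* and *Dl*, were picked from their lists outside these rules. Others are said to have been chosen after their values were seen. Symbols follow the table, 9791 genes matched the annotation by ID, and its build differs from dm3, so no coordinates or sequences are given. Of the 325 called genes, 116 overlap a gene on the opposite strand in that annotation. Of the called genes, 31 that rose and 62 that fell are in a list.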

Additional observations from a re-analysis of the deposited data

Results flagged for a closer look

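For 15 named genes, calls in mutants and with *dMPC1* RNAi went in opposite directions and the difference passed the interaction test of limma, with adjusted p no higher than 0.01. Over all genes tested 8.71% passed it. Genes chosen for opposite calls in these same libraries nearly always pass, so here the test adds no support. Over all called genes, 31 fell in mutants and rose with RNAi, and 21 rose in mutants and fell with RNAi. The interaction is the log2 fold change of mutants over precise excision minus that of *dMPC1* RNAi over *mCherry* RNAi. It was −14.04 for *CG3264*, −12.18 for *Drsl2*, −10.25 for *CG8147*, −8.60 for *CG7298* and −8.40 for *Jon66Cii*. It was −7.86 for *CNMa*, −5.87 for *CG3290*, −5.66 for *CG15533*, −5.06 for *Jon66Ci* and −4.27 for *LysX*. These 10 genes fell in mutants and rose with RNAi. The values for genes that rose in mutants and fell with RNAi were 7.18 for *LysS*, 4.06 for *Slc45-1*, 3.35 for *CG6283*, 3.05 for *Ugt86Dg* and 2.19 for *GstE9*. For all 10 genes that fell in mutants and rose with RNAi, the precise excision library was also above both *mCherry* RNAi libraries. It was far above them for *CG3264* and *CG8147* (794 and 145 normalized counts against 2.08 to 4.38 and 1.04 to 2.19). For *Jon66Ci* the gap was small (1296 against 1047 and 1184). For all genes named here that rose in mutants and fell with RNAi, the precise excision library was below both. *LysS*, for example, had 373 against 5595 and 6117. How far the control libraries account for these differences was not tested.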

How the results depend on the processing

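The counts of 115 rises and 210 falls were 0 and 0 with no filter on low genes, where 9913 genes were tested and 1842 had an unadjusted p under 0.05 in limma. They were 38 and 79 with TMM scaling, and 33 and 99 with edgeR on recovered reads. The fit of all libraries gave 48 rises and 151 falls, and an adjusted p of 0.05 gave 323 and 462. With mutant replicate 1 left out there were 28 rises and 78 falls, and with replicate 2 left out 16 and 69. Other pseudocounts, a mean of at least 50 and DESeq2 gave 96 to 126 rises and 179 to 269 falls. The number of genes with a difference from the RNAi response, 777, was 740 with a mean of at least 50 and 796 with a pseudocount of 5. It ranged from 121 without *mCherry* RNAi replicate 1 to 1633 without *dMPC1* RNAi replicate 1. The cause of these shifts was not tested, except that a single mutant library leaves fewer samples. Over 160 named genes, 1139 of 1586 values under alternatives kept their side of the threshold, 438 lost a call, 9 gained one and 0 reversed. TMM scaling moved the median of all genes by 0.01 on the log2 scale. No paired analysis was possible because the groups share only replicate number 2 among the libraries analysed. A single control library, and 7362983 reads in mutant replicate 2, limit what low genes can show.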
